A study of Mus musculus with 21 samples.

Results

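Matrix proteases cut the proteins between cells. The genes described here are those named Mmp followed by a digit, Adamts followed by a number only, and Timp1 to Timp4 in the array's gene name column. They came to 91 of 56605 probes and 46 of 37074 gene names, that is 23 Mmp genes, 19 Adamts genes and 4 Timp genes. They were taken by name, with no value in the rule.

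The arrays held RNA of female C57BL/6 mice, as freshly isolated hepatocytes or as CLiPs, progenitor-like cells that proliferate in culture and were derived from hepatocytes. The 7 groups had 3 arrays each. They were fresh hepatocytes, CLiPs at passage 1 (P1) before hepatic induction (day 0), P1 CLiPs after 8 days without the inducers (uninduced), P1 CLiPs after 8 days with oncostatin M and dexamethasone (induced), and the same 3 states at passage 11 or 12 (late). No group carries a transgene or a gene deletion in the labels. Within each late group replicate 3 was passage 11 and the others passage 12. Fresh replicate 3 has a P1 passage label but a title of freshly isolated hepatocytes; its 8 hepatocyte markers were well above background, as in the other fresh arrays. The labels do not say whether replicates are separate mice or cultures, so p-values measure the spread between these arrays, which may be technical.

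MMPs are zinc-dependent enzymes made as inactive precursors; most are secreted and some, the membrane types, are tethered to the cell surface. ADAMTS enzymes are secreted relatives with thrombospondin repeats, some of which process procollagen and others of which cut proteoglycans such as aggrecan and versican. TIMPs bind active metalloproteinases and block them, and in injured liver their balance with the MMPs is known to set how much matrix is degraded. Oncostatin M acts through gp130 and STAT3, and dexamethasone through the glucocorticoid receptor; both are used to drive hepatocyte maturation in culture.

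All values below are log2 signals minus the array's 75th percentile, so that 0 is the 75th percentile of that array. They were taken from the brightest probe of each gene, and levels of different genes are not compared. Per array, 46.07% to 60.52% of probes were well above background by the scanner software's own flag. The signal at the 75th percentile was 291.18 to 332.45 in fresh arrays, 466.02 to 788.61 in P1 arrays and 880.96 to 1241.1 in late arrays. Late arrays were read with another software version and lay on other slides than the rest. Passage cannot be told apart from this array batch. Fresh arrays shared no slide with CLiP arrays, so slide and the difference between fresh cells and CLiPs cannot be told apart. A random slide block cannot separate them either. With that block, limma kept all 19 calls on members at P1 day 0 against fresh cells and all 19 after induction. That fit covered all genes, whose counts under it are not given here. All 8 hepatocyte markers were well above background in every fresh array. Of the 8 biliary and progenitor markers, 5 were not well above background in any fresh array and all 8 were in every P1 array. All 8 Kupffer and macrophage markers were also well above background in the fresh arrays, whereas 5 of them, Clec4f and Adgre1 included, were not in any P1 array. Of 9 fibroblast markers, 5 to 7 were well above background on all arrays of each P1 group, and 8 were not on any late day 0 array, Col1a1 included.

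Of the 46 genes, 26 were well above background on all arrays of at least 1 group: 11 Mmp, 11 Adamts and 4 Timp genes. A further 13 reached that level only on some arrays. The other 7, Mmp9, Mmp20, Mmp21, Mmp25, Adamts8, Adamts16 and Adamts19, did so on no array with any of their probes. Mmp9, gelatinase B, and Mmp25 are known from neutrophils and macrophages. Mmp2 (gelatinase A), Mmp3 (stromelysin-1), Mmp10 and Mmp13 (collagenase-3), all common products of activated stromal cells, were among the 13. Of the 46 genes, 10 were well above background on all fresh arrays, 20 at P1 day 0, 20 in uninduced and 21 in induced P1 CLiPs, and 21, 22 and 19 in the corresponding late groups. The lowest signal well above background, on the scale used here, was -3.34 to -3.23 in fresh, -4.12 to -3.34 in P1 and -4.94 to -4.49 in late arrays, so these counts are not comparable between groups: Mmp8 counted in full at late day 0 with a mean of -4.52 and not in fresh cells with -3.02.

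**Figure D1:**
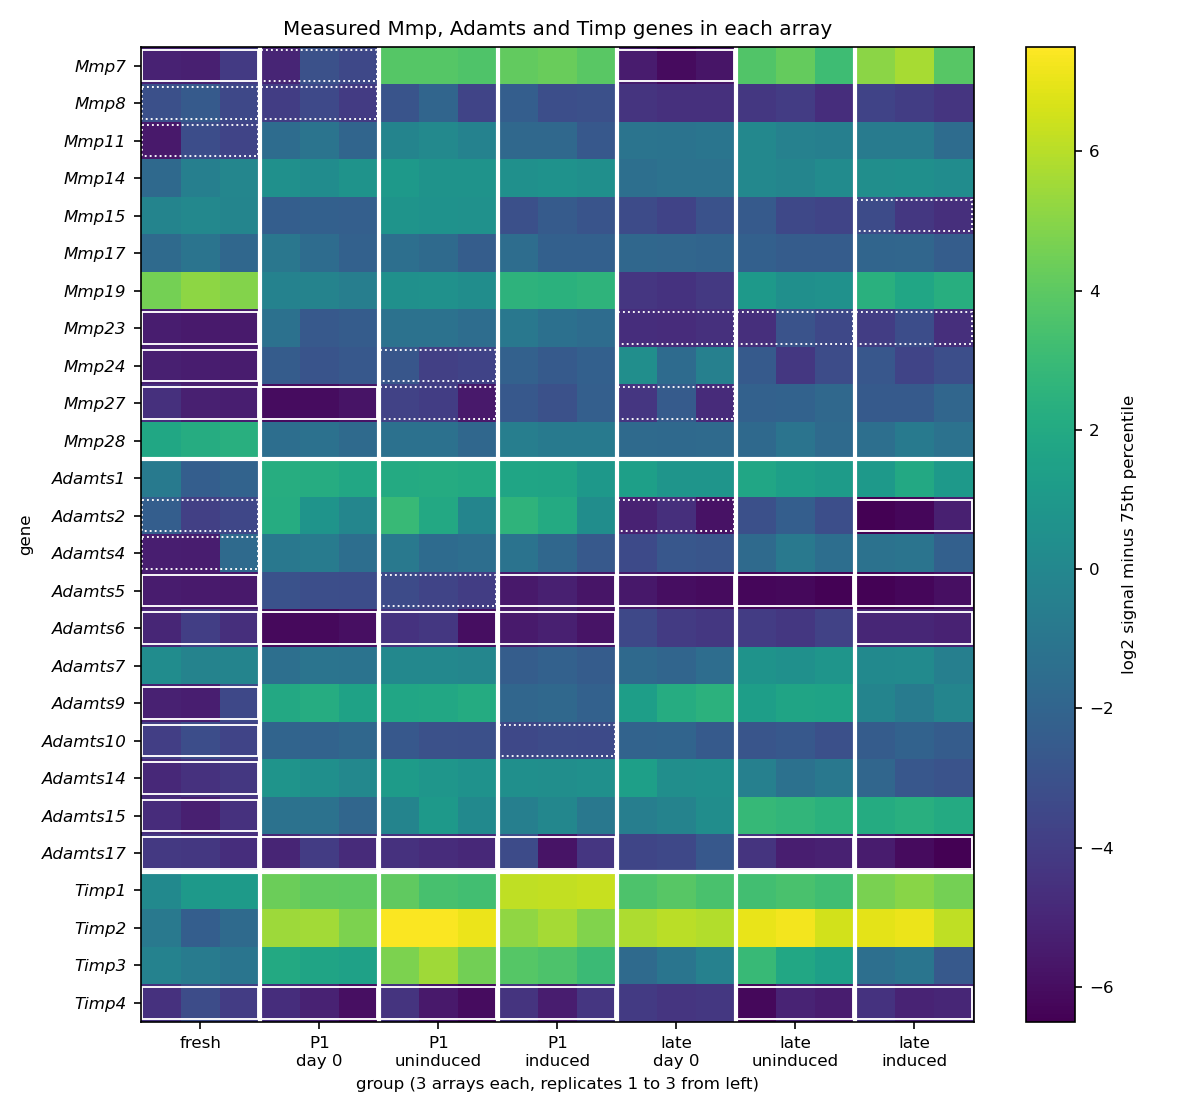
Log2 signal minus the array's 75th percentile (colour) for the 26 genes measured in full in at least 1 group (rows) in the 21 arrays (columns). Solid white frames mark groups with none of 3 arrays well above background and dotted frames those with 1 or 2. Colours are to be read along a row. Mmp7 turned from dim to bright after 8 days at both passages, and Mmp19 and Mmp28 were brightest in the fresh arrays.

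By position, 10 of the 23 Mmp genes form a cluster. Their probes lie between 7282762 and 7699535 on chromosome 9 of mm9, the build of the array files. From the low to the high end these are Mmp13, Mmp12, Mmp1b, Mmp3, Mmp1a, Mmp10, Mmp8, Mmp27, Mmp20 and Mmp7. Of these, Mmp8, Mmp27 and Mmp7 were well above background on all arrays of a group. The RefSeq promoter table for GRCm38.p6 held an entry for 32 of the 46 genes (35 promoters). Searched in the 250 bases before each start site, on both strands, the AP-1 motif TGANTCA was present in 22.9% of the members' promoters and in 6.75% of all 32851 promoters. It occurred before 8 of the 10 cluster genes and before none of the other 22 genes. AP-1 is the Fos and Jun dimer that is known to drive stromelysin and collagenase genes. The stretches around these matches are shown, with the AP-1 match in capitals, because Mmp7 is the single one of these 8 genes that was measured in full in any group.
Mmp13 (chr9:7272455-7272509, plus strand): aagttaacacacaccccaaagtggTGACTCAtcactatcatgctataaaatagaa
Mmp12 (chr9:7347306-7347360, plus strand): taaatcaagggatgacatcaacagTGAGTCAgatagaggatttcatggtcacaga
Mmp1b (chr9:7388089-7388143, minus strand): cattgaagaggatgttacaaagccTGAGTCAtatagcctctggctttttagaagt
Mmp3 (chr9:7445752-7445806, plus strand): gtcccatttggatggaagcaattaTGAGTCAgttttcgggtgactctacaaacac
Mmp1a (chr9:7464044-7464098, plus strand): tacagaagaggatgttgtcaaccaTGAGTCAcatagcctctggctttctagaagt
Mmp10 (chr9:7502255-7502309, plus strand): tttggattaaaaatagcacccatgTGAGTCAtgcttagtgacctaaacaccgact
Mmp20 (chr9:7628112-7628166, plus strand): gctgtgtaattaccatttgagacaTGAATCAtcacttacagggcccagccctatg
Mmp7 (chr9:7692003-7692057, plus strand): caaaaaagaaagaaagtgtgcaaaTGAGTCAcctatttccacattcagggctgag
Mmp10 and Mmp7 both carry the match starting 63 bases before the start site. The letters alone do not tell Mmp7, which became bright, from the neighbours that stayed dim, and a match is not a binding site.

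The promoter of Timp1, the inhibitor that rose with the inducers at both passages, is shown for the PEA3/ETS motif AGGAAG, in capitals. That motif was in 40.0% of the members' promoters and 29.5% of all promoters.
Timp1 (chrX:20869916-20870165, plus strand): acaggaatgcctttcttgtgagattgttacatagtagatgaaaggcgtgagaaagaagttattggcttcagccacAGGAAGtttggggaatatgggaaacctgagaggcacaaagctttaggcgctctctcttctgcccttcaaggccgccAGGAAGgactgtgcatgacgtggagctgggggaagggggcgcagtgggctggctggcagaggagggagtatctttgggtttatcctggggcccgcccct
Neither the STAT motif TTCNNNGAA nor the glucocorticoid response motif was found in this window. Among the members, the first was found before Mmp23 alone (7.02% of all promoters hold it) and the second before none (0.387% of all). By the same reference table, Timp1, Timp3 and Timp4 lie within the synapsin genes Syn1, Syn3 and Syn2, a nesting known for this family.

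In P1 day 0 CLiPs against fresh hepatocytes most measured members were higher: the inhibitors Timp1, Timp2 and Timp3, the aggrecan and versican cutting Adamts1, Adamts4, Adamts5, Adamts9 and Adamts15, and the procollagen processing Adamts2 and Adamts14. The 4 that were lower were Mmp19, Mmp28, Mmp15 and Adamts7. A gene was called at a limma adjusted p below 0.05 over all tested genes and a change of at least 2-fold. Of 23 members tested, 15 were called higher, against 25.4% of all genes, and 4 lower, against 25.2%. The median log2 change was 2.41 over the members and -0.01 over all genes tested. A member that was dim in fresh cells entered this test only by being bright elsewhere. Fewer cells of a type and less RNA per cell cannot be told apart in such bulk samples. With normexp background correction, which adds an offset of 50, 8 members were called higher. The calls of Mmp14 (0.77) and Adamts7 (-0.99) missed the 2-fold threshold without fresh replicate 1.

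During the 8 days without inducers, Mmp7, Timp3, Timp2 and Adamts15 rose at both passages, as did Adamts7 and Mmp27, the last from groups that were largely at background at P1. At P1, 7 of 23 members were called higher, against 6.28% of all genes, and none lower, against 4.86%. The seventh was Mmp15. Adamts10 (-0.94), Mmp24 (-0.78) and Adamts5 (-0.54) were lower and missed a call only by the fold threshold (limma adjusted p = 0.0023, 0.033 and 0.032). At late passage 10 of 24 members were called higher, against 8.19% of all genes, among them Mmp19, Mmp14, Adamts2 and Adamts4. Called lower were 4, against 6.37%: Mmp24, Adamts14, Adamts17 and Timp4. Adamts17 and Timp4 entered this fit only through day 0, and Adamts2 only through the uninduced arrays. The filter thus set the direction that these calls could take. Same-numbered arrays deviated together in these comparisons, and a fit with the replicate number as a block kept each of these calls. Within slide 4 all 7 P1 members were called, with the spread pooled over the fresh and P1 arrays. Within slide 5 each group had 1 array, and all 7 changes were above 0, from 0.22 (Mmp27) to 7.16 (Mmp7).

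With the inducers, against 8 days without them, Timp1 and Mmp19 rose at both passages and Timp3 and Adamts9 fell at both, by brightest probe. Another Mmp19 probe missed the threshold at late passage and another Timp3 probe missed it at P1. At P1, 4 of 23 members were called higher, against 9.68% of all genes (Timp1, Mmp19, Mmp27 and Mmp24), and 7 lower, against 9.02% (Adamts9, Mmp15, Adamts7, Timp2, Mmp11, Adamts5 and Timp3). At late passage 2 of 24 were called higher, against 2.94% of all genes, and 5 lower, against 3.06%. Adamts2, Adamts14 and Adamts6 made up the 5 with Timp3 and Adamts9. Mmp27 entered the P1 fit only through the induced arrays, and Adamts2 the late fit only through the uninduced ones. The inducers themselves left a mark at both passages: Socs3, a STAT3 feedback inhibitor, changed by 3.73 at P1 and 2.93 at late passage, and Fkbp5, a glucocorticoid target, by 2.21 and 2.19. Other cell type markers changed in the same comparison: at P1 the stellate list had 4 of 6 tested markers lower and none higher (median -2.28, Rgs5 -3.4), the biliary and progenitor list 5 of 8 lower and 1 higher (median -1.78), and the hepatocyte list 5 of 8 higher and none lower (median 1.3). At late passage 1 of 5 stellate markers was lower, and no biliary or hepatocyte marker was called. The part of these cell types in the members' changes was not tested. Mmp11, Timp3 and Mmp24 were not called within slide 4 or within slide 5 alone, nor Mmp27 within slide 4, and their changes kept their sign there.

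Induced P1 CLiPs still differed from fresh hepatocytes in most of these genes. Of 23 members 15 were called higher, against 20.3% of all genes, and 4 lower, against 18.8%. The 4 were Mmp28, Mmp15, Mmp19 and Adamts7. This comparison shares its fresh arrays with that of day 0. Here too, members that were dim in fresh cells entered only by being bright elsewhere. Adamts5 and Adamts10, higher at day 0, had log2 differences of -0.01 and 0.17 here, and both missed the threshold. The call of Adamts4 (log2 change 2.26, adjusted p = 0.032) was lost without induced replicate 1 (1.91) or 2 (2.25) or without fresh replicate 1 (1.66) or 2 (1.62), and that of Mmp14 without fresh replicate 1 (0.81).

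**Figure D2:**
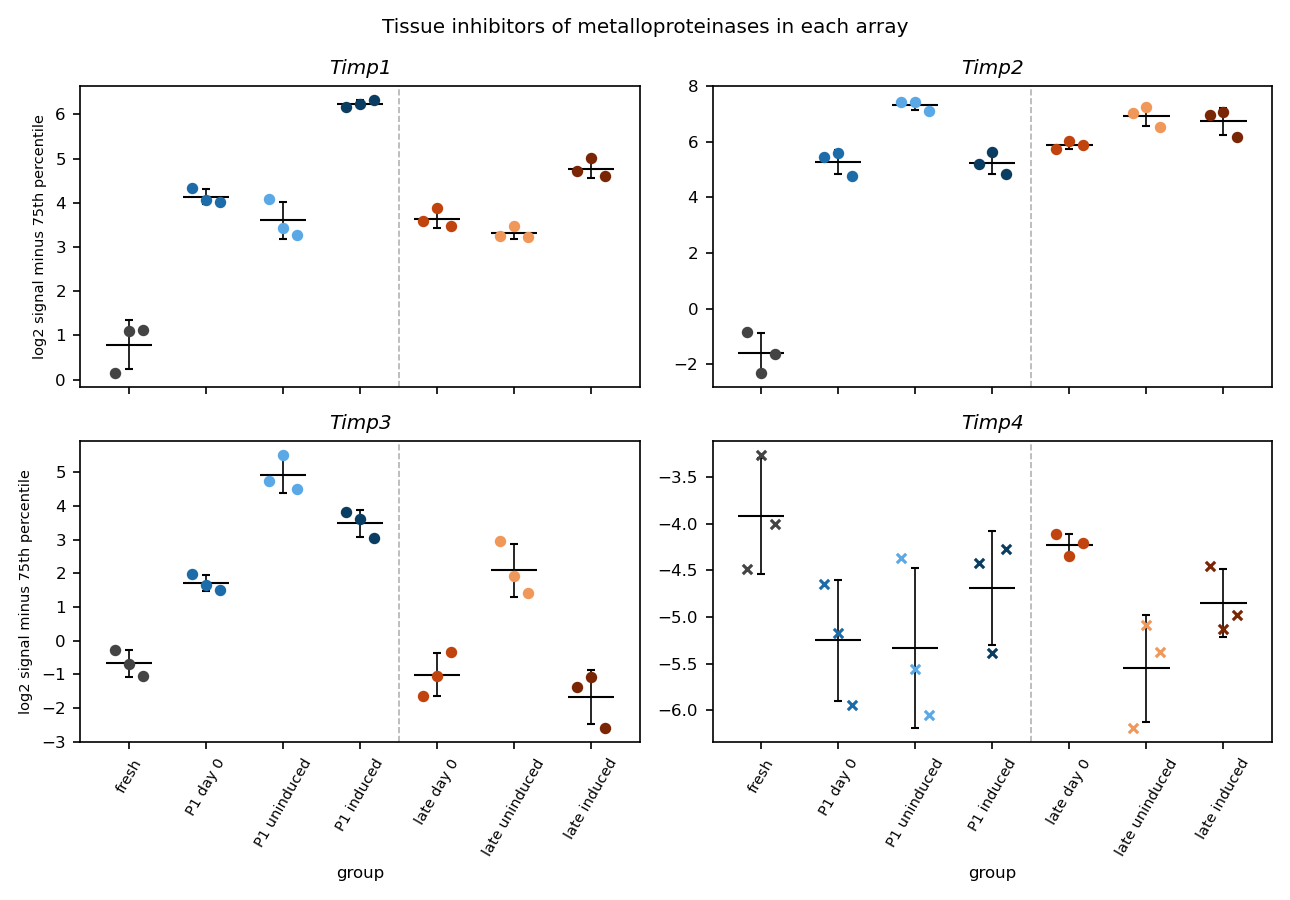
Log2 signal minus the 75th percentile for Timp1 to Timp4 by group; points are arrays, crosses mark groups with fewer than 3 arrays well above background, and bars are the mean and SD of 3 arrays. Timp1 was highest in induced P1 CLiPs, Timp2 in uninduced CLiPs, and Timp3 fell with the inducers at both passages.

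Timp1, an inhibitor of most secreted MMPs that is known to rise in liver injury, was higher in CLiPs and rose further with the inducers. Timp1 values were 0.15, 1.09 and 1.13 in the fresh arrays, 4.33, 4.06 and 4.02 at P1 day 0, 4.08, 3.44 and 3.28 in uninduced P1 CLiPs and 6.17, 6.23 and 6.33 in induced P1 CLiPs. The late arrays gave 3.58, 3.87 and 3.48 at day 0, 3.25, 3.48 and 3.23 uninduced and 4.71, 5.01 and 4.6 induced. All CLiP arrays lay above all fresh arrays, and all induced arrays above all uninduced arrays of their passage. The change from fresh to P1 day 0 was 3.35 on the log2 scale (adjusted p = 6.2e-07). With the inducers it was 2.64 at P1 (adjusted p = 1.9e-05) and 1.45 at late passage (adjusted p = 0.0007), while 8 days without them gave -0.54 and -0.32, neither past the threshold.

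Timp2, which both inhibits MMPs and takes part in the activation of pro-MMP2 by Mmp14, was higher at P1 day 0 than in fresh cells with both of its probes. Timp2 values were -0.85, -2.3 and -1.64 in the fresh arrays, 5.45, 5.58 and 4.76 at P1 day 0, 7.43, 7.44 and 7.1 in uninduced P1 CLiPs and 5.19, 5.64 and 4.84 in induced P1 CLiPs. In late CLiPs Timp2 stood at 5.75, 6.03 and 5.88 at day 0, at 7.03, 7.25 and 6.52 without inducers and at 6.95, 7.07 and 6.18 with them. At P1 its level rose over 8 days (log2 change 2.06, SE 0.35, adjusted p = 0.0012) and was lower by a similar amount with the inducers (log2 change -2.1, SE 0.35, adjusted p = 0.00066). The increase from fresh cells was 6.86 (adjusted p = 1.6e-08). The late increase over 8 days (log2 change 1.05, SE 0.261, adjusted p = 0.012) missed the 2-fold threshold without uninduced replicate 1 (1.0) or 2 (0.89) or day 0 replicate 1 (0.98), and the second Timp2 probe gave -0.31. For the 8-day rise at P1 that probe gave 1.03 (limma adjusted p = 0.094), short of the threshold, and with the inducers at P1 it gave -2.26.

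Timp3, the inhibitor that binds to the matrix and also blocks ADAMTS enzymes, rose during the 8 days and fell with the inducers. Timp3 values were -0.29, -0.7 and -1.06 in the fresh arrays, 1.98, 1.66 and 1.49 at P1 day 0, 4.74, 5.52 and 4.5 in uninduced P1 CLiPs and 3.81, 3.6 and 3.04 in induced P1 CLiPs. Late values were -1.64, -1.04 and -0.34 at day 0, 2.96, 1.91 and 1.42 in uninduced and -1.37, -1.08 and -2.6 in induced CLiPs. The rise was 3.21 at P1 (adjusted p = 3e-05) and 3.1 at late passage (adjusted p = 0.002). With the inducers Timp3 fell by 1.44 on the log2 scale at P1 (adjusted p = 0.0027) and by 3.78 at late passage (adjusted p = 0.0028), where the induced arrays overlapped those of day 0. Of its 3 probes the third was not well above background on any fresh or day 0 array. With the inducers at P1 that probe gave -0.2 (limma adjusted p = 0.88), short of the threshold. It was well above background on all uninduced and on 1 of 3 induced P1 arrays. The P1 call was also lost with the mean of all probes.

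Timp4 was well above background on all arrays of late day 0 CLiPs and on no other array, where the late arrays had a lower detection limit: fresh values, with a mean of -3.92, were not below those of late day 0, with -4.23. Timp4 values were -4.49, -3.26 and -4.0 in the fresh arrays, -4.65, -5.17 and -5.94 at P1 day 0, -4.37, -5.56 and -6.05 in uninduced P1 CLiPs and -4.42, -5.38 and -4.27 in induced P1 CLiPs. At late passage they were -4.11, -4.35 and -4.21 at day 0, -6.19, -5.09 and -5.37 without inducers and -4.45, -5.13 and -4.98 with them. Its late day 0 level was at least 1.45-fold that of the uninduced late arrays (log2 change -1.32, SE 0.284, adjusted p = 0.0061).

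**Figure D3:**
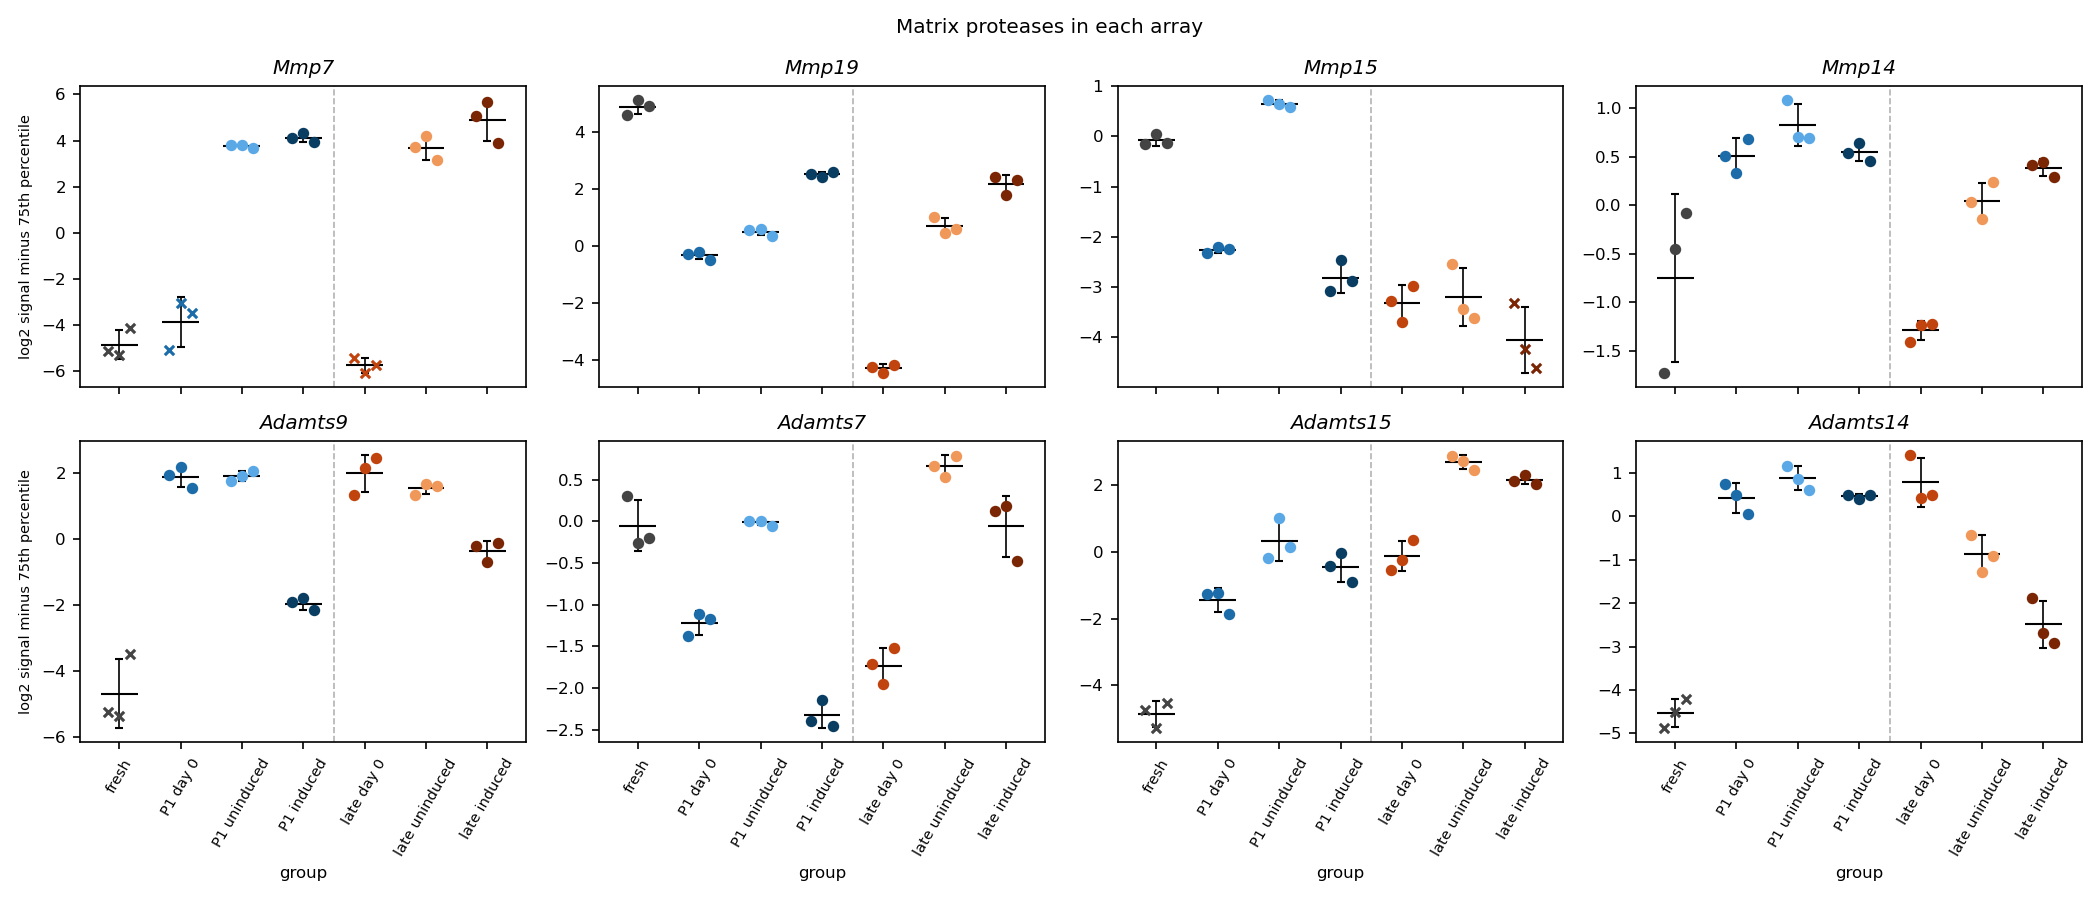
Log2 signal minus the 75th percentile for 8 proteases by group; points are arrays, crosses mark groups with fewer than 3 arrays well above background, bars are the mean and SD of 3 arrays, and each panel has its own axis. Mmp7 was near background at day 0 and bright at day 8 with or without inducers; Mmp15 was high in fresh and uninduced P1 cells, and Adamts9 fell with the inducers.

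Mmp7, matrilysin, a small secreted MMP of epithelia that lacks the hemopexin domain and is known from bile duct epithelium and injured liver, was the member with the largest change over the 8 days. Mmp7 values were -5.14, -5.29 and -4.12 in the fresh arrays, -5.07, -3.05 and -3.49 at P1 day 0, 3.8, 3.79 and 3.67 in uninduced P1 CLiPs and 4.13, 4.32 and 3.94 in induced P1 CLiPs. The late arrays gave -5.44, -6.08 and -5.73 at day 0, 3.71, 4.18 and 3.14 uninduced and 5.06, 5.66 and 3.89 induced. It was not well above background on any fresh or late day 0 array and was on 1 of 3 P1 day 0 arrays. All 12 day 8 arrays lay above all others. The log2 change over 8 days without inducers was 7.62 at P1 (SE 0.456, adjusted p = 2.6e-06), and at late passage the increase was at least 353-fold (adjusted p = 4.4e-06). The inducers changed it by 0.38 and 1.2, both short of the threshold. Induced P1 CLiPs were at least 171-fold above fresh cells. The second Mmp7 probe gave 7.45 at P1 and 8.48 at late passage. At the other end of the cluster, Mmp13, Mmp12, Mmp1b, Mmp3, Mmp1a and Mmp10 were well above background on 1 to 4 of 21 arrays each, and Mmp20, the nearest neighbour of Mmp7, on none.

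Mmp27 and Mmp8 are also in the cluster. Mmp27 values were -4.55, -5.28 and -5.3 in the fresh arrays, -6.04, -6.02 and -5.75 at P1 day 0, -3.74, -3.94 and -5.53 in uninduced P1 CLiPs and -2.64, -3.01 and -2.27 in induced P1 CLiPs. In late CLiPs Mmp27 stood at -4.29, -2.47 and -4.8 at day 0, at -2.17, -2.11 and -1.76 without inducers and at -2.56, -2.54 and -1.87 with them. It was measured in full in induced P1 CLiPs and in both late day 8 groups. Its 8-day change at P1, with 0 of 3 day 0 and 1 of 3 uninduced arrays well above background (log2 change 1.53, SE 0.415, adjusted p = 0.015) was lost without uninduced replicate 1 (1.20) or 2 (1.30) or day 0 replicate 1 (1.48). The late one (log2 change 1.83, SE 0.533, adjusted p = 0.024) was lost without uninduced replicate 1 (1.91), 2 (1.88) or 3 (1.71), or day 0 replicate 1 (1.62) or 3 (1.36). Its increase with the inducers at P1 was 1.76 (adjusted p = 0.0057). Mmp8, neutrophil collagenase, was measured in full in 5 groups and called in no comparison (log2 changes -0.77 to 0.99). Of 8 neutrophil markers, 2 or 3 were well above background on all arrays of each CLiP group and 4 or 5 on none; S100a9, Ngp, Ltf and Retnlg were on none of the CLiP arrays.

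Mmp19, a secreted MMP that cuts basement membrane proteins, was highest in fresh hepatocytes. Mmp19 values were 4.58, 5.1 and 4.89 in the fresh arrays, -0.3, -0.22 and -0.49 at P1 day 0, 0.55, 0.58 and 0.34 in uninduced P1 CLiPs and 2.53, 2.42 and 2.59 in induced P1 CLiPs. Late values were -4.27, -4.47 and -4.17 at day 0, 1.0, 0.46 and 0.6 in uninduced and 2.39, 1.78 and 2.3 in induced CLiPs. No group's arrays overlapped the fresh ones. The level fell by 5.19 on the log2 scale from fresh to P1 day 0 (SE 0.139, adjusted p = 1.2e-10) and rose with the inducers by 2.02 at P1 (adjusted p = 1.2e-06) and by 1.47 at late passage (adjusted p = 0.0022). Induced P1 CLiPs remained 2.35 below fresh cells on that scale. At late passage it rose by 4.99 over 8 days without inducers (adjusted p = 3.2e-06), against 0.83 at P1, which was below 2-fold. The second Mmp19 probe, not well above background on any day 0 array of either passage, gave -4.02 and 1.25 for the changes from fresh to P1 day 0 and over 8 late days. With the inducers that probe kept the P1 call but gave 0.6 (limma adjusted p = 0.18) at late passage, short of the threshold. It was well above background on all uninduced and induced late arrays.

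Mmp28, epilysin, was also highest in fresh cells. Mmp28 values were 1.84, 2.16 and 2.31 in the fresh arrays, -1.44, -1.28 and -1.68 at P1 day 0, -1.29, -1.27 and -1.8 in uninduced P1 CLiPs and -0.53, -0.81 and -0.71 in induced P1 CLiPs. At late passage they were -1.66, -1.72 and -1.68 at day 0, -1.74, -1.13 and -1.68 without inducers and -1.37, -0.79 and -1.22 with them. It fell by 3.57 on the log2 scale at P1 day 0 (adjusted p = 1.2e-08), and no CLiP array reached the fresh range. With the inducers at P1 it changed by 0.77 (adjusted p = 0.0048), which was below 2-fold. Its second probe was not well above background on any array.

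Among the membrane types Mmp15 had the largest change within P1. Mmp15 values were -0.16, 0.04 and -0.13 in the fresh arrays, -2.33, -2.2 and -2.25 at P1 day 0, 0.73, 0.64 and 0.59 in uninduced P1 CLiPs and -3.07, -2.47 and -2.88 in induced P1 CLiPs. The late arrays gave -3.28, -3.7 and -2.98 at day 0, -2.53, -3.44 and -3.61 uninduced and -3.32, -4.24 and -4.6 induced. In P1 CLiPs its level fell from fresh by 2.18, rose by 2.92 over 8 days without inducers and was 3.46 lower with them, all on the log2 scale (adjusted p = 1e-07, 6.6e-07 and 4.4e-08). Uninduced P1 arrays lay above every other array, the fresh ones included. At late passage the groups overlapped and the changes were 0.12 and -0.86. Mmp14, the activator of pro-MMP2, was on average -0.75 ± 0.87 (SD, n = 3) in fresh cells and 0.51 ± 0.18 at P1 day 0 (log2 change 1.26, SE 0.336, adjusted p = 0.0053), and rose over 8 days at late passage (log2 change 1.33, SE 0.114, adjusted p = 7.5e-05). Mmp17, a GPI-anchored type, was called in no comparison, with group means from -2.36 to -1.52.

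Mmp24 and Mmp23 were not well above background on any fresh array, and Mmp11 was on 1. Mmp24 values were -5.27, -5.39 and -5.41 in the fresh arrays, -2.42, -2.87 and -2.66 at P1 day 0, -2.75, -3.85 and -3.7 in uninduced P1 CLiPs and -2.16, -2.53 and -2.19 in induced P1 CLiPs. In late CLiPs Mmp24 stood at 0.42, -1.62 and -0.4 at day 0, at -2.51, -4.25 and -3.24 without inducers and at -2.68, -3.65 and -3.14 with them. Mmp24, another membrane type, was at least 1.56-fold higher at P1 day 0 than in fresh cells and fell over 8 days at late passage (log2 change -2.8, SE 0.585, adjusted p = 0.0053). Its change with the inducers at P1 (1.14, adjusted p = 0.004) was 0.93 without uninduced replicate 2. Mmp23 values were -5.36, -5.48 and -5.51 in the fresh arrays, -1.28, -2.58 and -2.4 at P1 day 0, -1.23, -1.23 and -1.49 in uninduced P1 CLiPs and -0.88, -1.31 and -1.54 in induced P1 CLiPs. Late values were -4.69, -4.73 and -4.56 at day 0, -4.59, -2.93 and -3.45 in uninduced and -3.93, -3.2 and -4.6 in induced CLiPs. Mmp23, a membrane MMP without a hemopexin domain, was at least 2.3-fold higher at P1 day 0 than in fresh cells and was above the late range in every P1 array. Mmp11 values were -5.52, -3.19 and -3.61 in the fresh arrays, -1.53, -1.14 and -1.95 at P1 day 0, -0.21, 0.08 and -0.29 in uninduced P1 CLiPs and -1.75, -1.77 and -2.64 in induced P1 CLiPs. At late passage they were -1.14, -1.17 and -1.06 at day 0, 0.01, -0.36 and -0.45 without inducers and -0.67, -0.68 and -1.56 with them. Mmp11, stromelysin-3, which is known from stromal cells, rose from fresh to P1 day 0 (log2 change 2.56, SE 0.512, adjusted p = 0.00082) and fell with the inducers at P1 (log2 change -1.91, SE 0.512, adjusted p = 0.011).

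The procollagen N-proteinases Adamts2 and Adamts14, which trim fibrillar procollagens, were both higher in P1 CLiPs than in fresh cells with their brightest probes. Adamts2 values were -2.33, -3.84 and -3.54 in the fresh arrays, 2.17, 0.72 and -0.1 at P1 day 0, 2.96, 1.93 and -0.13 in uninduced P1 CLiPs and 2.6, 2.06 and 0.34 in induced P1 CLiPs. The late arrays gave -5.18, -4.64 and -5.79 at day 0, -3.06, -2.29 and -3.12 uninduced and -6.73, -6.24 and -5.27 induced. Within each P1 group the 3 arrays spread over more than 2 log2 units, with replicate 1 highest and replicate 3 lowest. The change from fresh to P1 day 0 was 4.16 (adjusted p = 0.0011). It was 0.62 (limma adjusted p = 0.37) with the mean of all 3 Adamts2 probes, and another probe was well above background on 2 of 3 fresh arrays and on no P1 array (-2.87). It was -6.13 from P1 day 0 to late day 0 (adjusted p = 1.4e-05), where 1 of 3 arrays was well above background. Array batch and passage cannot be told apart there. At late passage Adamts2 rose over 8 days by 2.37 (adjusted p = 0.0027) and was at least 3.31-fold lower with the inducers. The summed level of 9 fibroblast markers, on the same scale, was 3.34, 1.87 and 2.5 in the fresh arrays, where Adamts2 was far lower than at P1 day 0, and was 5.02, 3.71 and 2.51 at P1 day 0, 5.88, 4.84 and 2.68 in uninduced and 7.02, 6.66 and 5.65 in induced P1 CLiPs, in the order of the replicates. In the late arrays it was between -3.02 and -0.98, and was highest in the induced ones, where Adamts2 was lowest. The part of fibroblast-like cells in the Adamts2 values was not tested.

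**Figure D4:**
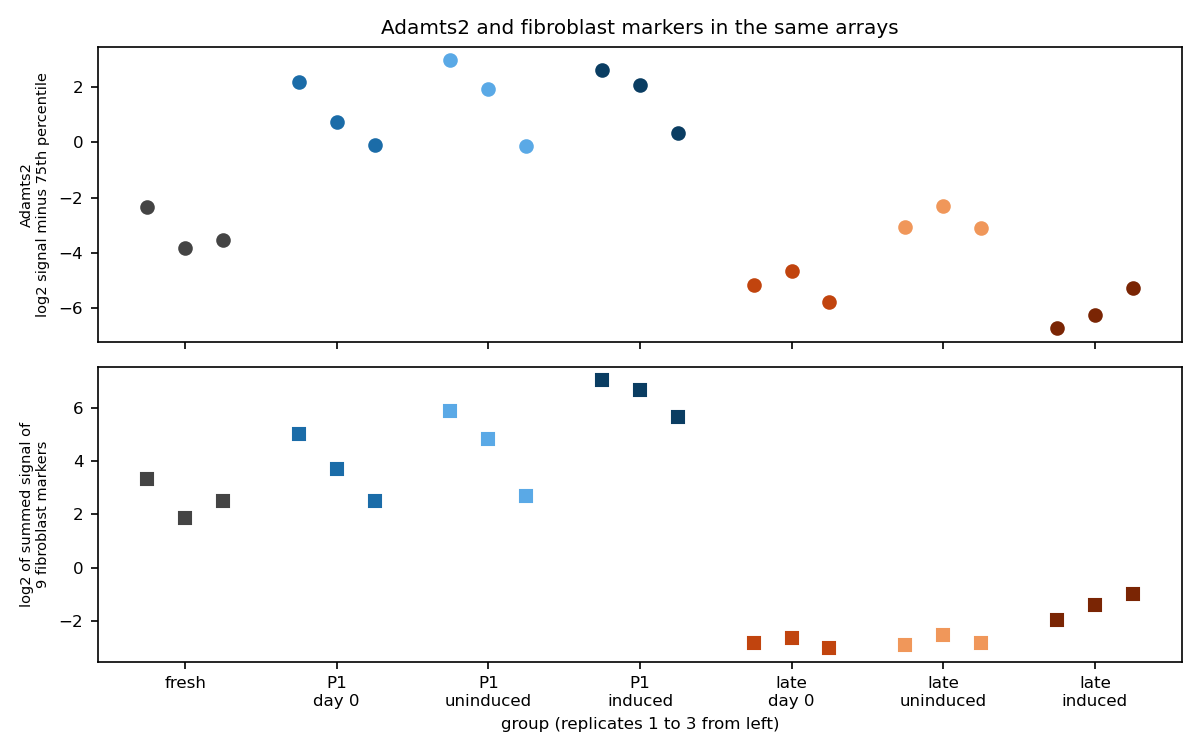
Upper panel, Adamts2 log2 signal minus the 75th percentile; lower panel, log2 of the summed signal of 9 fibroblast markers on the same scale; each point is 1 array and replicates run from 1 to 3 within a group. In the P1 groups both panels are highest for replicate 1 and lowest for replicate 3, and both are low in the late arrays.

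Adamts14 values were -4.88, -4.5 and -4.22 in the fresh arrays, 0.74, 0.48 and 0.05 at P1 day 0, 1.17, 0.86 and 0.61 in uninduced P1 CLiPs and 0.48, 0.41 and 0.5 in induced P1 CLiPs. In late CLiPs Adamts14 stood at 1.42, 0.42 and 0.49 at day 0, at -0.42, -1.28 and -0.91 without inducers and at -1.88, -2.68 and -2.91 with them. Adamts14 was at least 13.1-fold higher at P1 day 0 than in fresh cells (adjusted p = 3.7e-09), with a spread of less than 1 log2 unit in each P1 group. A second Adamts14 probe kept that call. For induced P1 against fresh cells it gave 0.63 (limma adjusted p = 0.19), and the call was lost. It read -2.15, -2.59 and -3.13 in uninduced P1 CLiPs. In induced ones it read -4.35, -4.14 and -5.71, on no array well above background. In late CLiPs, whose fibroblast markers were near background, day 0 values of the brightest probe overlapped the P1 range. They fell by 1.65 over 8 days without inducers (adjusted p = 0.0071) and were lower by 1.62 with the inducers than without (adjusted p = 0.019) on the log2 scale. The latter call was lost without induced replicate 2 (-1.52) or uninduced replicate 1 (-1.39) or 3 (-1.64). With the second probe late day 0 values, -0.34, -1.47 and -1.38, lay above all its P1 values. Adamts3, the third enzyme of this kind, was well above background on 2 of 21 arrays.

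Adamts9, a versican-cutting enzyme, had the largest increase of its kind at P1 day 0. Adamts9 values were -5.22, -5.35 and -3.48 in the fresh arrays, 1.96, 2.19 and 1.57 at P1 day 0, 1.77, 1.91 and 2.09 in uninduced P1 CLiPs and -1.9, -1.79 and -2.15 in induced P1 CLiPs. Late values were 1.36, 2.16 and 2.47 at day 0, 1.35, 1.69 and 1.63 in uninduced and -0.2, -0.68 and -0.12 in induced CLiPs. It was at least 36.6-fold higher at P1 day 0 than in fresh cells (adjusted p = 7.3e-08), and its log2 changes over the 8 days, 0.02 and -0.44, were short of the threshold. With the inducers it fell by 3.87 at P1 (adjusted p = 2.5e-05) and by 1.89 at late passage (adjusted p = 0.0035), and induced arrays did not overlap uninduced ones. Induced P1 CLiPs differed from fresh cells by 2.74 with the brightest probe alone. Each of the other probes was dim on every induced P1 array and lost the call, as did the mean of all probes and normexp background correction. One of these probes, not well above background in either group, gave -0.14.

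Adamts1 and Adamts5, which cut aggrecan and versican, are neighbours on chromosome 16. Adamts1 values were -0.81, -2.3 and -2.04 in the fresh arrays, 2.24, 2.19 and 1.9 at P1 day 0, 2.06, 2.1 and 1.98 in uninduced P1 CLiPs and 1.71, 1.66 and 0.95 in induced P1 CLiPs. At late passage they were 1.39, 0.81 and 0.78 at day 0, 1.78, 1.4 and 1.16 without inducers and 1.1, 1.96 and 1.09 with them. Adamts1 rose from fresh to P1 day 0 (log2 change 3.83, SE 0.338, adjusted p = 1.4e-06) and changed by -0.61 to 0.45 in the later comparisons within a passage, none past the threshold. Adamts5 values were -5.43, -5.51 and -5.56 in the fresh arrays, -2.95, -3.13 and -3.2 at P1 day 0, -3.3, -3.63 and -3.96 in uninduced P1 CLiPs and -5.57, -5.25 and -5.73 in induced P1 CLiPs. The late arrays gave -5.59, -5.99 and -6.08 at day 0, -6.25, -6.19 and -6.41 uninduced and -6.43, -6.25 and -5.94 induced. Adamts5, the main aggrecanase of mouse cartilage, was well above background on all arrays of P1 day 0 alone and was at least 1.14-fold higher there than in fresh cells. With the inducers at P1 it was lower by 1.88 on the log2 scale (adjusted p = 9.2e-06), with no induced array well above background.

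Adamts15 values were -4.73, -5.28 and -4.53 in the fresh arrays, -1.25, -1.23 and -1.86 at P1 day 0, -0.17, 1.0 and 0.15 in uninduced P1 CLiPs and -0.43, -0.03 and -0.9 in induced P1 CLiPs. In late CLiPs Adamts15 stood at -0.53, -0.23 and 0.36 at day 0, at 2.88, 2.73 and 2.45 without inducers and at 2.12, 2.31 and 2.04 with them. Adamts15, a versican-cutting enzyme, rose at least 3.58-fold from fresh to P1 day 0 and then by 1.77 over 8 days at P1 (adjusted p = 0.0023) and by 2.82 at late passage (adjusted p = 4.8e-05). All late day 8 arrays lay above all P1 arrays. Adamts4 values were -5.32, -5.4 and -1.65 in the fresh arrays, -0.89, -0.67 and -1.42 at P1 day 0, -0.82, -1.59 and -1.46 in uninduced P1 CLiPs and -1.16, -1.85 and -2.57 in induced P1 CLiPs. Late values were -3.37, -2.68 and -2.79 at day 0, -1.67, -0.84 and -1.43 in uninduced and -1.22, -1.12 and -2.2 in induced CLiPs. Adamts4, an inducible aggrecanase, rose from fresh to P1 day 0 (log2 change 3.12, SE 0.837, adjusted p = 0.0054), although fresh replicate 3, at -1.65, lay within the range of the induced P1 arrays. It rose over 8 days at late passage (log2 change 1.63, SE 0.34, adjusted p = 0.0053).

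Adamts7, which cuts cartilage oligomeric matrix protein, changed in the same directions as Mmp15 at P1. Adamts7 values were 0.3, -0.26 and -0.2 in the fresh arrays, -1.38, -1.11 and -1.17 at P1 day 0, 0.01, 0.01 and -0.05 in uninduced P1 CLiPs and -2.39, -2.14 and -2.45 in induced P1 CLiPs. At late passage they were -1.71, -1.95 and -1.52 at day 0, 0.67, 0.53 and 0.79 without inducers and 0.12, 0.18 and -0.48 with them. It fell by 1.17 from fresh to P1 day 0, rose by 1.21 over 8 days and was 2.32 lower with the inducers on the log2 scale (adjusted p = 3.2e-05, 0.00018 and 8.6e-07). At late passage it rose by 2.39 over 8 days (adjusted p = 5.3e-05), and the change with the inducers, -0.73 (adjusted p = 0.035), was below 2-fold. Adamts6 values were -4.98, -3.89 and -4.61 in the fresh arrays, -6.13, -6.16 and -5.92 at P1 day 0, -4.47, -4.23 and -5.97 in uninduced P1 CLiPs and -5.5, -5.27 and -5.76 in induced P1 CLiPs. The late arrays gave -3.48, -4.04 and -4.23 at day 0, -4.0, -4.23 and -3.74 uninduced and -5.01, -5.02 and -5.16 induced. Adamts6 was well above background at late day 0 and in uninduced late arrays, and was at least 1.48-fold lower with the inducers (adjusted p = 0.0092); that change was -0.95 without uninduced replicate 3. Adamts10, which is tied to fibrillin microfibrils, was at least 2.44-fold higher at P1 day 0 than in fresh cells (adjusted p = 9.3e-06). Adamts17 was well above background at late day 0 alone, where it was at least 2.73-fold the uninduced day 8 level (adjusted p = 0.0079).

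Late day 0 CLiPs were compared with P1 day 0 CLiPs with array batch and passage inseparable. Of 26 members, 5 were called higher, against 4.33% of all genes, and 10 lower, against 9.11%. With the slide as a random block 2 were called higher, Adamts6 and Mmp27, and 7 lower; Mmp24, Adamts15, Adamts17, Mmp15, Adamts1 and Adamts4 lost their calls. Mmp19 fell by 3.97 (adjusted p = 1.6e-10), Timp3 fell by 2.72 (adjusted p = 0.00018), Mmp23 fell by 2.57 (adjusted p = 0.00011) and Mmp14 fell by 1.79 (adjusted p = 0.00011) on the log2 scale. Another Mmp19 probe gave -0.53 (limma adjusted p = 0.28) and another Timp3 probe -1.3 (limma adjusted p = 0.22). Both of these probes were dim in both groups. Adamts5 was at least 3.24-fold lower, and Mmp7 (-1.88) was near background in both groups. Adamts5 entered this fit only through P1 day 0, Adamts17 only through late day 0, and Adamts6 only through late day 0 and uninduced late arrays. Mmp24 (2.12), Mmp27 (2.09), Adamts6 (2.15), Adamts15 (1.32) and Adamts17 (1.4) were higher. Mmp27, Adamts6 and Adamts17 were not well above background on any P1 day 0 array. The late day 0 mean of Adamts6 (-3.92) lay within the detection limits of the P1 day 0 arrays (-3.99 to -3.69), so its fold has no lower bound. Adamts4 (-1.95), Mmp15 (-1.06) and Adamts1 (-1.12) lost their calls without single arrays: Adamts4 without any of the 6 (-2.16 to -1.74), Mmp15 without late day 0 replicate 2 (-0.86), and Adamts1 without late day 0 replicate 2 (-1.03) or 3 (-1.01) or P1 day 0 replicate 1 (-1.05). Adamts17 lost its call without late day 0 replicate 2 (1.52) or 3 (1.11) or P1 day 0 replicate 1 (1.19) or 3 (1.31).

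The change with the inducers differed between passages for 8 of 26 members, by a test of the difference itself over all 21 arrays. For 5 the late change was higher than that at P1, against 4.73% of all genes, and for 3 it was lower, against 5.21%. Mmp15, Adamts7 and Timp2 fell at P1 and were not called at late passage, and Adamts9 fell less there by its brightest probe. The Adamts9 call was lost with another probe (-0.04), with a further one and with the mean of all probes. Adamts5 fell at P1 and was not well above background on any late array, so it was not tested there and could not fall further. Timp3 fell further at late passage and Timp1 rose less. Adamts2 changed by 0.08 at P1 and was at least 3.31-fold lower at late passage, where no induced array was well above background. The Timp1 call was lost with quantile normalization (-0.88, limma adjusted p = 0.07). That of Timp3 was lost with another probe (-2.91, limma adjusted p = 0.085), which was dim on all late induced arrays. The call of Adamts2 was lost on leaving out any of the 12 day 8 arrays (-3.50 to -2.47) other than late induced replicate 3, induced P1 replicate 3 and uninduced P1 replicate 1. In the same test 3 of 6 stellate markers had a higher change at late passage and none a lower one (median 2.12). By its brightest probe Mmp19 rose at both passages, with a difference of -0.55 (SE 0.243, adjusted p = 0.14).

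**Figure D5:**
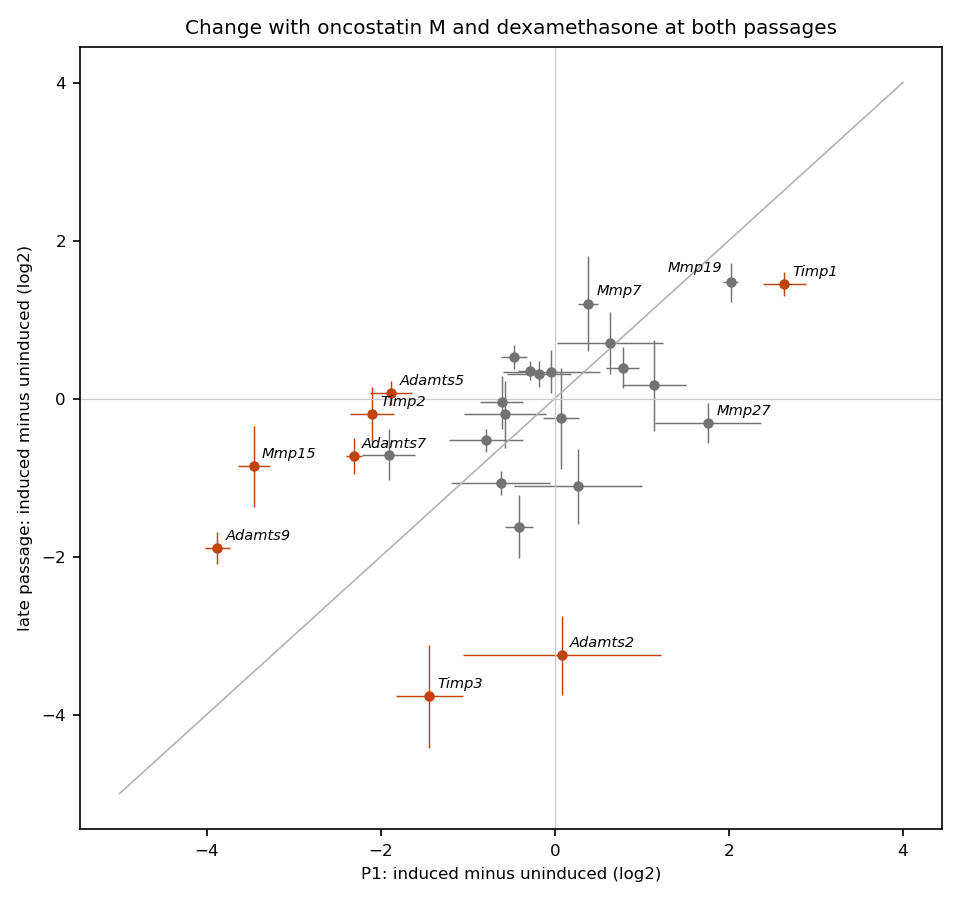
Mean log2 change with the inducers at P1 (horizontal) and at late passage (vertical) for 26 members; bars are standard errors from the SDs of 3 arrays a group, the diagonal marks equal change, and orange marks the 8 members whose change differed between passages. Timp1 and Mmp19 lie in the upper right, and Timp3 and Adamts9 fell at both passages.

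The plasminogen system, whose product plasmin activates several pro-MMPs, changed in the same comparisons. Of its 7 tested genes, 5 were called higher and 2 lower at P1 day 0 against fresh cells (median log2 change 5.91, against -0.01 over all genes, of which 25.4% were called higher and 25.2% lower). The urokinase receptor gene Plaur was at least 449-fold, the activator genes Plat and Plau at least 101-fold and at least 100-fold higher, and plasminogen itself, Plg, a hepatocyte product, fell by 7.95 on the log2 scale. With the inducers at P1, Plau (-7.51), Plat (-3.59) and Plaur (-3.00) fell, and Plg (4.45) and the antiplasmin gene Serpinf2 (2.70) rose. Of all genes, 9.68% were called higher and 9.02% lower there. At late passage Plaur (-1.80), Plau (-3.37) and Serpine2 (-1.05) fell and none of 6 rose (2.94% of all genes were called higher and 3.06% lower).

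Of 10 tested genes for other inhibitors and activators, 6 were called higher and none lower with the inducers at P1 (median 1.53, against 0.05 over all genes, of which 9.68% were called higher and 9.02% lower). In P1 day 0 CLiPs against fresh cells 1 was higher and 5 were lower, Tfpi2 at least 29.8-fold and Pcsk5 at least 30.8-fold (25.4% and 25.2% of all genes). A2m, alpha-2-macroglobulin, which traps proteases of every class, rose by 8.69, the proprotein convertase gene Pcsk5 by 4.90, Lcn2, which binds Mmp9, by 1.85 and Bsg, an MMP inducer, by 1.54; Tfpi2 was called while not well above background in either group. Pcsk6 rose by 1.51. At late passage A2m rose at least 3.06-fold and Pcsk6 by 1.47, and Papln was at least 1.24-fold lower, so that 2 of 9 were higher and 1 lower (2.94% and 3.06% of all genes). Reck, a membrane-anchored MMP inhibitor, was lower at P1 day 0 than in fresh cells (-1.69) and rose over 8 days at late passage (1.24). Of 7 ADAM sheddases, 4 were higher at P1 day 0 than in fresh cells, Adam8 at least 240-fold, and none was lower (median 1.81), against 25.4% and 25.2% of all genes. Of 10 tested substrates, 7 were higher there and none lower (median 3.26, same background), among them the basement membrane collagen Col4a1 (6.10) and perlecan, Hspg2 (3.98). With the inducers at P1 Hspg2 (-4.19), Col4a1 (-1.93) and Col4a2 (-1.77) fell, and Fn1 (1.01) and Dcn (2.54) rose.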

How the data were processed

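Total RNA of 21 samples in 7 groups was hybridised to 1-colour Agilent arrays (Cy3), per the labels. The authors deposited Feature Extraction output (version 11.5.1.1 for fresh and P1 arrays, 10.7.3.1 for late arrays, per the file headers), in which the processed signal is a background-subtracted intensity. They also deposited 2 tables of log2 values: the first equals the values used here and the second is centred on each probe's median. Probe coordinates are mm9, per the file headers.

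From the deposited intensities, log2 processed signals were averaged over unflagged spots of a probe and each array's 75th percentile was subtracted. Each gene was represented by its brightest probe on average over all arrays and was tested if well above background on all arrays of at least 1 group of the fit. limma 3.58.1 (R 4.3.3; lmFit, eBayes) was fitted to the 12 fresh and P1 arrays, to the 9 late arrays and, across passages, to all 21, with Benjamini-Hochberg adjustment over all tested genes. A call needed an adjusted p below 0.05 and a 2-fold change. A dim group gives "at least" folds against the lowest signal well above background, or the probe's own if higher, per array. The fits were tested on simulated data. The number of arrays limits the precision.

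Every array's value is given for the Timp genes and for members called with a log2 change of at least 2; others are summarised. Members and lists were chosen with earlier results of these data known. Same-numbered arrays deviated together from day 0 to day 8 without inducers at P1 (correlations 0.38, 0.36 and 0.54) and at late passage (0.26, 0.35 and 0.34), and between the late day 8 groups (0.48, 0.62 and 0.65); these are a hint from the data, since the labels do not say what a number shares. Alternatives were quantile normalization, normexp background correction, other filters, other probe choices, the slide and replicate number as blocks, and leaving out each array. Promoters are RefSeq's for GRCm38.p6. Comparisons against fresh cells share their 3 control arrays. The values of 1 gene of the plasminogen list are not reported here.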

Additional observations from a re-analysis of the deposited data

Results flagged for a closer look

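For 8 members the change with oncostatin M and dexamethasone differed between late passage and P1 by a limma test of the difference itself. Array batch and passage are inseparable there. The late change was higher for Mmp15 by 2.60 (SE 0.418, adjusted p = 0.00038), for Adamts9 by 1.99 (adjusted p = 0.015), for Adamts5 by 1.96 (adjusted p = 5.5e-05), for Timp2 by 1.90 (adjusted p = 0.0094) and for Adamts7 by 1.59 (adjusted p = 0.00031), on the log2 scale. Mmp15 changed by -3.46 at P1 and -0.86 at late passage. Adamts5 was not well above background on any late array, so that its late change was not measured. A second Adamts9 probe, dim in induced P1 cells, gave a difference of -0.04. The Adamts9 call was also lost with a further probe, likewise dim in induced P1 cells, and with the mean of all probes. The late change was lower than that at P1 for Adamts2 (-3.33, adjusted p = 0.039), Timp3 (-2.34, adjusted p = 0.015) and Timp1 (-1.19, adjusted p = 0.018). Adamts2 was not well above background on any late induced array, so that its difference is no exact value. Timp1 rose at both passages, by 2.64 and 1.45, and its difference lost its call with quantile normalization (-0.88). Timp3 fell at both, by 1.44 and 3.78, and its difference lost its call with another probe (-2.91).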

How the results depend on the processing

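Of 100 calls on members named in the text, 48 were kept under every alternative run and 85 without each array in turn. Normexp background correction (offset 50) lost 29 and quantile normalization 4. The mean of all probes lost 16 and turned the direction of 1 more. The authors' deposited tables kept all 77 calls compared, but this was fixed in advance. The first table equals the values used here, and the centring of the second leaves differences between arrays unchanged. The cause of these changes was not tested, other than that stricter filters test fewer genes and single probes more. The median of all genes shifted by 0.14 with quantile normalization and by -0.16 with normexp for P1 day 0 against fresh, and by -0.12 with normexp for induced P1 against fresh.

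With normexp background correction, the member counts became 8 (from 15) higher in P1 day 0 against fresh, 2 (from 4) higher in P1 induction, 9 (from 15) higher in induced P1 against fresh, 2 (from 4) lower in late cells over 8 days and 2 (from 5) higher in late against P1 day 0. With normexp background correction, the gene counts became 752 (from 1295) higher in P1 over 8 days, 1169 (from 1860) lower in P1 induction, 2577 (from 4192) higher in induced P1 against fresh, 1129 (from 1747) higher in late cells over 8 days, 392 (from 652) lower in late induction and 558 (from 968) higher in late against P1 day 0. With no filter on dim probes, the member counts became 7 (from 4) lower in P1 day 0 against fresh. With no filter on dim probes, the gene counts became 6321 (from 2036) lower in late against P1 day 0. With only genes above background on all arrays of the fit, the member counts became 5 (from 15) higher in P1 day 0 against fresh, 4 (from 7) higher in P1 over 8 days, 2 (from 4) higher in P1 induction, 4 (from 7) lower in P1 induction, 5 (from 15) higher in induced P1 against fresh, 2 (from 4) lower in late cells over 8 days, 3 (from 5) lower in late induction, 0 (from 5) higher in late against P1 day 0, 4 (from 10) lower in late against P1 day 0 and 2 (from 5) higher in the induction difference. With only genes above background on all arrays of the fit, the gene counts became 2748 (from 5238) higher in P1 day 0 against fresh, 496 (from 1295) higher in P1 over 8 days, 566 (from 1003) lower in P1 over 8 days, 1302 (from 1997) higher in P1 induction, 635 (from 1860) lower in P1 induction, 1893 (from 4192) higher in induced P1 against fresh, 402 (from 627) higher in late induction, 309 (from 968) higher in late against P1 day 0, 833 (from 2036) lower in late against P1 day 0, 379 (from 1057) higher in the induction difference and 691 (from 1164) lower in the induction difference. With every probe on its own, the member counts became 23 (from 15) higher in P1 day 0 against fresh, 1 (from 0) lower in P1 over 8 days, 14 (from 7) lower in P1 induction, 11 (from 5) lower in late induction and 8 (from 5) higher in the induction difference. With every probe on its own, the gene counts became 8189 (from 5238) higher in P1 day 0 against fresh, 2792 (from 1860) lower in P1 induction, 6418 (from 4192) higher in induced P1 against fresh, 2208 (from 1359) lower in late cells over 8 days and 1585 (from 968) higher in late against P1 day 0. With quantile normalization, the member counts became 1 (from 0) lower in P1 over 8 days. Within slide 5, the member counts became 3 (from 7) higher in P1 over 8 days. Within slide 5, the gene counts became 584 (from 1295) higher in P1 over 8 days and 502 (from 1003) lower in P1 over 8 days. Within slide 4, the member counts became 2 (from 4) higher in P1 induction. With the mean of all probes, the member counts became 2 (from 4) lower in late cells over 8 days, 3 (from 5) lower in late induction, 3 (from 5) higher in late against P1 day 0 and 3 (from 5) higher in the induction difference. With the slide as random block, the member counts became 2 (from 5) higher in late against P1 day 0.

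Leaving out 1 array, member counts lay at 0 to 2 lower over 8 days at P1 (2 without uninduced replicate 1) and 3 to 5 lower in late induction (3 without late uninduced replicate 3). The directions turned for Adamts9 in induced P1 against fresh with another probe that was dim in both groups (-0.14), Timp2 over 8 days at late passage with another probe (-0.31), Adamts17 in late against P1 day 0 with the mean of all probes (-0.69) and Adamts9 in the induction difference with another probe (-0.04). With the replicate number as a block, members higher over 8 days at P1 were 8, members lower in late against P1 day 0 were 9 and in the induction difference 4; that block changed no other member count, and of the named calls lost only Adamts4 in late against P1 day 0. For P1 induction the numbers did not pair by the correlations 0.41, 0.069 and 0.37.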

Other observations

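A list of 15 tested transcription factor genes held the Fos and Jun family (AP-1), the ETS family and Runx1 and Runx2 of the Runt family. At P1 day 0 against fresh hepatocytes 9 were called higher and 3 lower, with a median log2 change of 2.34 against -0.01 over all genes, of which 25.4% were called higher and 25.2% lower. Runx1 was at least 36.6-fold and Fosl1 at least 21.3-fold higher, and Etv4 was higher by 4.11 on the log2 scale. Fos (-4.47), Jun (-2.84) and Fosb (-2.36) were lower. Over 8 days without inducers Fosl1 and Etv4 fell at both passages, by 2.59 and 2.09 at P1, where none of the 15 rose (6.28% of all genes higher, 4.86% lower), and by 4.26 and 2.97 at late passage, where Fos (1.96) rose (8.19% higher, 6.37% lower). At P1 limma gave an unadjusted p under 0.05 for 3 higher values, below 2-fold. With the inducers at P1, 1 of the 15 rose, Elf3 (1.52), and 5 fell, Etv4 (-2.05) the most (9.68% and 9.02% of all genes). At late passage Etv1, Etv4, Etv5 and Fosl1 fell with the inducers, by 1.33, 1.08, 2.59 and 1.13. None of the 15 rose (2.94% of all genes higher, 3.06% lower).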
